A study of Homo sapiens with 12 samples.

Results

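Trametinib was added to EC359 in OVCAR8 cells, an established human ovarian cancer cell line, and the resulting combination group was compared with the group given EC359 alone. Both groups received 150 nM EC359 for 7 h, and the combination group also received 100 nM trametinib over the same 7 h. The members of the comparison are the 3 libraries labelled for both agents and the 3 libraries labelled for EC359, chosen by their treatment labels, which makes 6 of the 12 libraries of the series. The other 6 libraries are 3 from vehicle-treated cells (control) and 3 from cells given 100 nM trametinib alone, also for 7 h. They give the effect of the same added drug without EC359. All 4 conditions share a single cell line, and nothing in the labels says whether the 3 libraries of a condition came from separate cultures, so p-values measure only the spread between these libraries, which may be technical.

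Trametinib inhibits MEK, the kinase that phosphorylates and activates ERK, the last kinase of the Ras, Raf, MEK and ERK cascade. Active ERK enters the nucleus and raises transcription of immediate early genes, of ETS family factors and of its own inhibitors, the sprouty proteins and dual-specificity phosphatases, so the mRNAs of these genes are widely used as a readout of ERK output. EC359 is an inhibitor of LIFR, the receptor of leukemia inhibitory factor (LIF), which signals together with IL6ST (gp130) through JAK kinases and STAT3. The question of the comparison is what a MEK inhibitor changes in cells that already receive the LIFR inhibitor.

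RNA abundance is given as CPM (counts of a gene relative to all counted reads of its library, scaled by TMM normalization), and the change between groups as a log2 fold change. The 6 libraries held 24928675 to 31311690 reads on genes, and 14865 genes had enough reads for a test. A gene with 0 counts in a library of this comparison could still be present at up to 0.0958 to 0.120 CPM, the equivalent of 3 counts. Across genes, log2 CPM correlated with r from 0.993 to 0.994 between libraries of the same condition and from 0.984 to 0.985 between EC359 and combination libraries. Of the 10 epithelial ovarian markers, KRT7, KRT8, KRT18, MSLN, PAX8, EPCAM and WT1 were detected in all 12 libraries, while KRT19 and MUC16 were at or near 0 and CDH1 did not exceed 0.564 CPM. Their summed level was 4145 to 4197 CPM with EC359 and 3970 to 4114 CPM in the combination. Of the 6 fibroblast markers only COL1A1 was abundant, and the sum was 219.9 to 233 CPM with EC359 and 315 to 336 CPM in the combination, with DCN at 0 in every library and COL1A2, COL3A1 and PDGFRA at or near 0. The leukocyte markers PTPRC and CD3E were at 0 in every library, with the sum of 5 markers at 56.4 to 61.1 CPM with EC359 and 50.4 to 52.8 CPM in the combination, nearly all of it CD68. The sums of 4 endothelial and 3 erythroid markers stayed under 1 CPM in both groups.

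Compared to EC359 alone, 251 genes were higher and 231 were lower in the combination by at least 2-fold and with an adjusted p-value below 0.05, which are 1.69% and 1.55% of the genes tested. All adjusted p-values come from the quasi-likelihood F test of edgeR, with the Benjamini-Hochberg method applied over all genes tested. Genes passing these thresholds are called differentially expressed genes (DEGs) here. Without a minimum fold change, 3578 genes (24.1%) were higher and 3741 (25.2%) were lower, and these shares are the background against which the gene groups are read. The gene lists were chosen with earlier results of these data known. A share above the background therefore describes a list and is not independent support for it. The median log2 fold change over all genes was 0.002. The genes that fell were more abundant than those that rose, but both sets were less abundant than the genes tested as a whole. The falls had a median level in the higher group of 5.90 CPM, 98 of 231 reached 10 CPM and 43 stayed under 1 CPM. The rises had a median of 1.40 CPM, 38 of 251 reached 10 CPM and 87 stayed under 1 CPM. Over all genes tested the median was 22.2 CPM, 9517 of 14865 reached 10 CPM and 1549 stayed under 1 CPM. Of the genes that rose, 70 (27.9%) had a single exon, against 5.85% of all genes tested, and 67 had symbols of noncoding RNAs. Of the genes that fell, 25 (10.8%) had a single exon and 16 had symbols of noncoding RNAs. Such symbols belonged to 784 of the 14865 genes tested. A change of at least 4-fold was reached by 38 of the falls and 25 of the rises. When at least 10 counts were required in every library, the number of rises was 108 and the number of falls 155. In these bulk samples, fewer cells of a kind and less RNA per cell cannot be told apart.

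Feedback inhibitors of ERK signaling were the strongest decreases. Of 17 genes of this list, all tested, 12 (70.6%) fell and 2 (11.8%) rose at an adjusted p-value under 0.05, against 25.2% and 24.1% of all genes, and the median log2 fold change was -1.07. Among them 9 fell at least 2-fold and 1 rose at least 2-fold. SPRY4, a sprouty protein that inhibits signaling from receptor tyrosine kinases to ERK, lies on chromosome 5 from 142310427 to 142325055 in hg38. It was at 81.6, 79.7 and 81.7 CPM in the 3 EC359 libraries and at 1.72, 1.30 and 1.5 CPM in the 3 combination libraries. The groups were far apart, and SPRY4 was lower by 53.7-fold, with a log2 fold change of -5.75 (standard error 0.081, edgeR adjusted p = 2.6e-51). Control libraries held 19.2, 19.1 and 20.3 CPM and trametinib libraries 0.281, 0.266 and 0.195 CPM, so the 4 group levels ran from trametinib, through the combination and control, to EC359, without overlap.

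DUSP6, the cytoplasmic phosphatase that dephosphorylates ERK, was at 14.6, 15.1 and 14.9 CPM with EC359 and 1.52, 1.94 and 1.16 CPM in the combination, a log2 fold change of -3.27. With trametinib alone it was at 0.0312, 0.190 and 0.0649 CPM, which rests on 1, 5 and 2 counts, whereas the combination libraries held 38, 52 and 31 counts. Its level in the combination was thus above that with trametinib alone and below the control level of 3.75, 3.99 and 4.50 CPM. DUSP4, a nuclear phosphatase of the same family, had the same order, with mean levels of 0.294 CPM with trametinib, 1.35 CPM in the combination, 4.38 CPM in control and 10.4 CPM with EC359. DUSP5, a nuclear ERK phosphatase, was at 188, 186 and 183 CPM with EC359 and 55.0, 53.0 and 55.5 CPM in the combination (log2 fold change -1.77), and control held 56.2, 58.4 and 59.2 CPM. The combination libraries all lay below the control libraries for DUSP5, by a small margin.

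SPRY2 fell from a mean of 53.9 to 17.8 CPM (log2 fold change -1.60). The sprouty-related inhibitors SPRED1, SPRED2 and SPRED3 had log2 fold changes of -1.07, -1.27 and -1.73. The members that rose were DUSP8 and DUSP16, phosphatases that act mainly on JNK and p38 kinases. DUSP16 increased from 25.2 to 45.1 CPM (log2 fold change 0.84), and DUSP8 was at 0.769 CPM with EC359 and 2.34 CPM in the combination (log2 fold change 1.61). SPRY1, IL17RD and DUSP10 did not pass the test. With at least 10 counts required in every library, 1 member of the list rose.

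**Figure D1:**
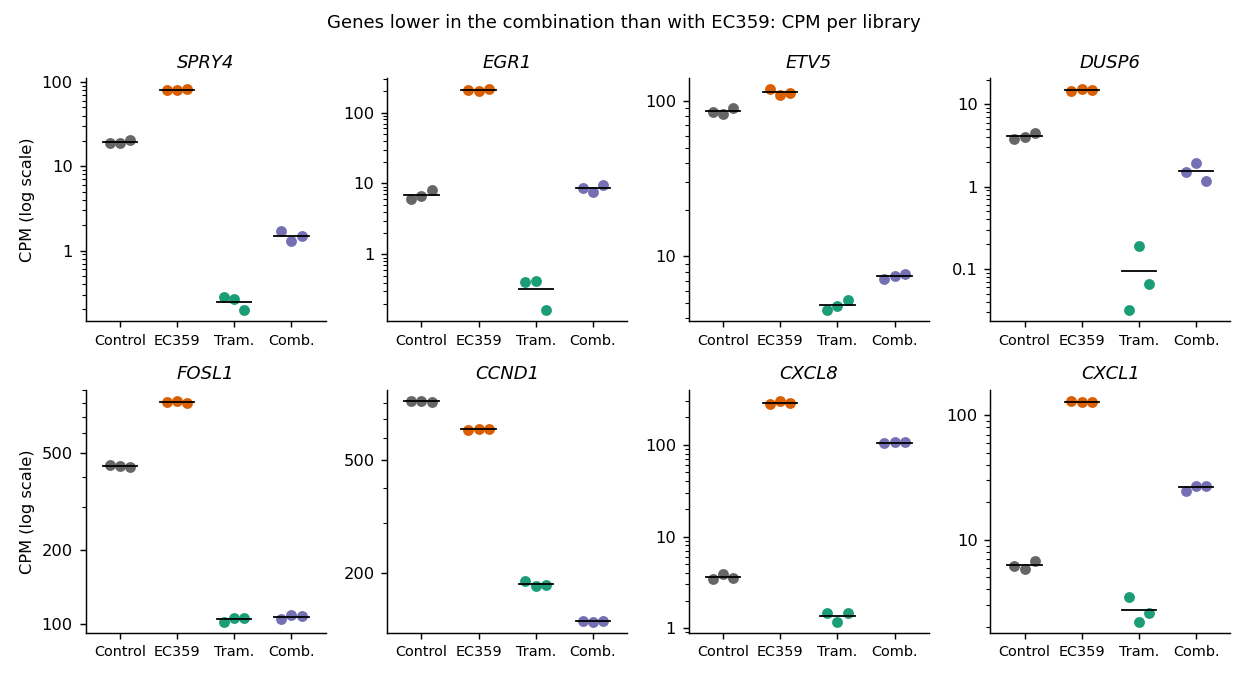
CPM per library on a logarithmic axis for 8 genes lower in the combination than with EC359, in control, EC359, trametinib (Tram.) and combination (Comb.) libraries, with 3 points a group and a line at the group mean. For SPRY4, ETV5, DUSP6, FOSL1 and CCND1 the combination libraries lie below the control libraries, whereas for CXCL8 and CXCL1 they lie above them.

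Transcription factors and growth genes listed as ERK-dependent, a label not tested here, formed the next group. Of 29 tested, 23 (79.3%) fell, 14 of them at least 2-fold, while 1 (3.45%) rose. The median log2 fold change of this list was -0.92. ETV5, an ETS family factor of the PEA3 group, was at 119, 110.4 and 113 CPM with EC359 and at 7.19, 7.49 and 7.70 CPM in the combination, a 15.3-fold decrease (log2 fold change -3.93, standard error 0.055, edgeR adjusted p = 1.8e-51). Its relatives ETV1 and ETV4 decreased by log2 fold changes of -3.30 and -1.88. The 3 PEA3 factors therefore fell together, and in each the combination libraries lay below the control libraries. FOSL1, the AP-1 subunit also called FRA1, lies on chromosome 11 from 65892136 to 65900526 and was abundant. It fell from 803, 814 and 799 CPM to 105, 109 and 108 CPM (log2 fold change -2.91), close to the 102, 106 and 106 CPM measured with trametinib alone. MYEOV, a gene often amplified together with CCND1, was at 163, 162 and 158 CPM with EC359 and 12.5, 14.8 and 13.8 CPM in the combination (log2 fold change -3.56).

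CCND1 encodes cyclin D1, which drives CDK4 and CDK6 in G1. It was at 641, 646 and 643 CPM with EC359 and at 135, 135 and 136 CPM in the combination, 4.75-fold lower (log2 fold change -2.25, standard error 0.024, edgeR adjusted p = 8.9e-57). Trametinib alone gave 188, 181 and 182 CPM and control 812, 809 and 803 CPM, so the combination had the lowest CCND1 of the 4 conditions. EPHA2, an ephrin receptor, decreased from a mean of 349.9 to 62.7 CPM, the chromatin protein gene HMGA2 from 53.5 to 10.1 CPM, and the urokinase gene PLAU from 58.2 to 16.9 CPM. PHLDA1, a gene induced by growth factors, was at 103, 104 and 106 CPM with EC359 and 17.6, 19.6 and 17.9 CPM in the combination (log2 fold change -2.51). The exception that rose was the ephrin receptor gene EPHA4 (log2 fold change 0.87). PHLDA2 has the largest positive value of the list but did not pass, and its combination libraries differed widely. Its levels were 0.507, 0.201 and 0.394 CPM with EC359 and 8.14, 0.373 and 0.150 CPM in the combination, and without combination replicate 1 its log2 fold change of 2.98 became -0.45. MMP3 was under the filter on low counts.

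Other large decreases came from genes outside the lists, named as the largest falls of at least 10 CPM. G0S2, an inhibitor of the triglyceride lipase ATGL, was at 17.1, 18.8 and 16.7 CPM with EC359 and 0.798, 1.16 and 0.827 CPM in the combination (log2 fold change -4.23). ESM1, which encodes the secreted proteoglycan endocan, was at 12.3, 14.0 and 14.6 and 1.20, 0.782 and 0.639 CPM (log2 fold change -3.97). NAV3, a microtubule-associated neuron navigator gene, fell from 25.8, 27.2 and 27.4 to 3.15, 3.87 and 3.12 CPM (log2 fold change -2.98). For all 3 genes the combination libraries also lay below the control libraries, which held means of 5.78, 4.82 and 16.0 CPM. Among the 12 largest falls the highest adjusted p-value was 1.2e-20, for DUSP4, and among the 12 largest rises it was 0.00204, for HIST1H4C (edgeR).

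Immediate early genes, which are transcribed within minutes of a stimulus without new protein synthesis, split by family. Of 28 tested, 16 (57.1%) fell, 6 of them at least 2-fold, and 7 (25%) rose, 1 of them at least 2-fold. The share that rose was near the background of 24.1%. The median was -0.32. The EGR zinc finger factors had the largest decreases. EGR1, on chromosome 5 from 138465492 to 138469315, was at 206, 204 and 211 CPM with EC359 and 8.54, 7.53 and 9.54 CPM in the combination, a 24.3-fold decrease (log2 fold change -4.60, standard error 0.059, edgeR adjusted p = 4.1e-37). Control libraries held 6.07, 6.66 and 7.98 CPM, which overlapped the combination libraries, and trametinib libraries 0.406, 0.418 and 0.162 CPM. EGR2, EGR3 and EGR4 decreased (log2 fold changes -1.91, -2.52 and -2.74). EGR3 had 0 counts in every control library and 0, 0 and 1 counts with trametinib alone, against 24, 20 and 27 counts in the combination and 139, 147 and 123 counts with EC359. NAB2, which encodes a corepressor of EGR proteins, also fell (log2 fold change -0.92).

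The AP-1 genes did not move as a block. FOS fell from a mean of 57.3 to 18.6 CPM and FOSB from 52.3 to 20.8 CPM, both still far above control means of 1.92 and 1.07 CPM. JUNB fell (log2 fold change -0.80). JUN and JUND, in contrast, were higher in the combination, by log2 fold changes of 0.23 and 0.61. ATF3, a stress-induced member of the same bZIP class, was at 82.4, 89.1 and 84.6 CPM with EC359 and 183, 185 and 179.7 CPM in the combination (log2 fold change 1.10, standard error 0.035, edgeR adjusted p = 2.5e-33). It was the DEG of this list that rose. Trametinib alone gave 8.46, 7.25 and 8.40 CPM against 3.46, 2.79 and 3.62 CPM in control, a log2 fold change of 1.29. The reprogramming factor gene KLF4 and the orphan nuclear receptor gene NR4A3 were higher (log2 fold changes 0.82 and 0.98), and MYC fell (log2 fold change -0.32).

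Promoter sequences are shown for the 3 largest rises and 3 largest falls that had an entry among RefSeq promoters (build GRCh38.p14), and for MT1X, added after its values were seen because of its motifs. Each is the 250 bases before a transcription start, on the strand of the gene, 5′ to 3′, and the start is the RefSeq start nearest to the gene's start in the authors' annotation. It lay 0 bases (MT1X) to 808 bases (SPRY4) from it. Capitals mark matches, on either strand, to the letters of 5 motifs. These are the AP-1 site TGANTCA, the cyclic AMP response element TGACGTCA and the CArG box bound by SRF. The others are the ETS motif, searched only as CCGGAA, and the metal response element, searched as TGCACNC or TGCGCNC. Of the 24 largest rises and falls 15 had an entry. HIST1H4C, MT1M, KCNQ1OT1, KRT17, WFDC21P, ETV5, MYEOV, DUSP4 and FOSL1 had none.
ACTC1 (rise, chr15:34795550-34795799, minus strand): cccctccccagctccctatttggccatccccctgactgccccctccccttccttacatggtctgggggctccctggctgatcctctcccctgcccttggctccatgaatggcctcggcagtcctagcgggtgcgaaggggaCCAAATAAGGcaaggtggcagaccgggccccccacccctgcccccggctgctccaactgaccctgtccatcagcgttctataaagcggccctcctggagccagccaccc
ZSCAN31 (rise, chr6:28336149-28336398, minus strand): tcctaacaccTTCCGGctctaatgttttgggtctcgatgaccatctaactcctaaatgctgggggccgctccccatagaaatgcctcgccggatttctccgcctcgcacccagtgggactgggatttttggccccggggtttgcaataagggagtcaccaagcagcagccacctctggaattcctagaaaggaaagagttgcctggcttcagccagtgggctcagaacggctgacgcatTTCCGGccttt
TGFB2 (rise, chr1:218345086-218345335, plus strand): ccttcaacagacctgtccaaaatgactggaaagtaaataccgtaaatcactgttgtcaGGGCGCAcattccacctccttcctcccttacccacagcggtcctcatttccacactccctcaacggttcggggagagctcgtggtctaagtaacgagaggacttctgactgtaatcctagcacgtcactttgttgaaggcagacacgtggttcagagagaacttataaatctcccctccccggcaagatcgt
SPRY4 (fall, chr5:142324248-142324497, minus strand): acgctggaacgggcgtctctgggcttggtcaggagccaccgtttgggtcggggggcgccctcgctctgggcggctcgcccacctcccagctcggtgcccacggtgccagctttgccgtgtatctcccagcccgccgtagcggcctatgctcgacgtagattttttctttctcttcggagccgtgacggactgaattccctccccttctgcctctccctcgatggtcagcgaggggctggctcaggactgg
EGR1 (fall, chr5:138465229-138465478, plus strand): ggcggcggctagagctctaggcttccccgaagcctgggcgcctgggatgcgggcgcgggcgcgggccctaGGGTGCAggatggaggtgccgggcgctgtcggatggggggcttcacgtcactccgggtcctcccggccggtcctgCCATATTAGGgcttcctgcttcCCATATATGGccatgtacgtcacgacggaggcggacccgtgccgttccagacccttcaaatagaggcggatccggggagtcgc
G0S2 (fall, chr1:209675162-209675411, plus strand): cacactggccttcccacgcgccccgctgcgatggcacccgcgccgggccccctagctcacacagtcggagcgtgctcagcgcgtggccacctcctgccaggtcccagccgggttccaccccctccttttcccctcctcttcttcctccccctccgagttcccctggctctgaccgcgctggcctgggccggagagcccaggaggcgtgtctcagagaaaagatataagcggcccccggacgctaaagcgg
MT1X (rise, chr16:56682220-56682469, plus strand): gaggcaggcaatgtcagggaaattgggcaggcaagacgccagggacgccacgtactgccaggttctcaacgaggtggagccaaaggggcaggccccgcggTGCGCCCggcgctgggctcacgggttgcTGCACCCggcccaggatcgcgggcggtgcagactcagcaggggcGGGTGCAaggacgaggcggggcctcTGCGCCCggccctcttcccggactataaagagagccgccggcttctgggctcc
The CArG box occurred once in the ACTC1 promoter, at bases -109 to -100, and at 2 places in the EGR1 promoter, at bases -105 to -96 and -83 to -74. ACTC1 had the largest rise and EGR1 the second largest fall, so matches to this motif stood before genes that moved in opposite directions. The MT1X promoter held 4 metal response elements and the ZSCAN31 promoter 2 matches to the ETS letters CCGGAA. No searched letters were found in the SPRY4 and G0S2 windows. Over the 10686 genes tested that had a promoter entry, a CArG box occurred in 0.898%, a metal response element in 33.7%, the ETS letters CCGGAA in 24.6%, an AP-1 site in 3.78% and a cyclic AMP response element in 2.82%. Among the 115 rises with an entry these shares were 2.61%, 24.3%, 12.2%, 4.35% and 1.74%. Among the 158 falls with an entry they were 1.27%, 22.8%, 18.4%, 6.33% and 2.53%. The matches are letters only, and no binding was measured.

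Chemokine and cytokine genes decreased nearly as a group. Of 12 tested, 11 (91.7%) fell, 6 of them at least 2-fold, and 0 rose by edgeR (0 at an unadjusted p under 0.05, and 0 by DESeq2), with a median log2 fold change of -1.04. The other 7 genes of the list were under the filter. CXCL1, a neutrophil chemokine, was at 131, 127 and 127 CPM with EC359 and 24.8, 26.9 and 27.3 CPM in the combination (log2 fold change -2.28). CXCL8, which encodes interleukin-8, was at 276, 301 and 283 and 103, 107 and 106 CPM (log2 fold change -1.44). Its control libraries held 3.43, 3.90 and 3.50 CPM and its trametinib libraries 1.47, 1.18 and 1.46 CPM. The combination thus had less of these chemokines than EC359 alone and far more than control or trametinib alone. CCL20, CXCL3 and CXCL2 had log2 fold changes of -2.42, -1.38 and -1.25. IL6 fell from a mean of 81.4 to 45.9 CPM, and IL1B, at a low level, from 2.40 to 0.882 CPM. IL18 did not pass the test.

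All 19 genes of the NF-kappaB list passed the test, 16 (84.2%) lower and 3 (15.8%) higher, with a median of -0.52. Those lower by at least 2-fold were BIRC3, IRAK2, TRAF1, ICAM1 and NFKBIE. BIRC3, an inhibitor of apoptosis protein recruited to TNF receptors, was at 39.2, 39.3 and 40.4 CPM with EC359 and 12.7, 10.7 and 12.2 CPM in the combination (log2 fold change -1.74). TRAF1, an adaptor of the same receptors, was at 14.0, 12.8 and 11 and 4.83, 4.84 and 5.34 CPM (log2 fold change -1.33), and ICAM1, a leukocyte adhesion molecule, at 261, 262 and 251 and 116, 115 and 118 CPM (log2 fold change -1.15). In ICAM1 the combination libraries overlapped the control libraries, at 113, 120.0 and 117 CPM. The subunits moved less than these genes, with NFKB1 at -0.26, RELA at -0.15 and RELB at -0.47. The members that rose were REL, NFKBIB and SOD2, the mitochondrial superoxide dismutase gene (log2 fold change 0.55).

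For LIFR, the receptor on which EC359 acts, no difference was detected, while the shared chain and the ligand were lower. LIFR was at 19.2, 21.0 and 19.9 CPM with EC359 and 20.8, 19.2 and 20.7 CPM in the combination, a log2 fold change of 0.01 (standard error 0.067, edgeR adjusted p = 0.903). The libraries of the groups overlapped. IL6ST, the shared signaling chain, was slightly lower, at 416, 408 and 411 CPM with EC359 and 385, 359 and 372 CPM in the combination (log2 fold change -0.15). The ligand LIF decreased from 74.3, 72.8 and 74.5 to 44.2, 43.7 and 45.0 CPM (log2 fold change -0.74), and its control libraries held 21.2, 22.2 and 21.7 CPM. Without EC359, trametinib changed LIFR (log2 fold change 0.22) and LIF (log2 fold change -0.15). Over the list of LIF and IL6 family signaling, 10 of 21 tested fell (47.6%) and 6 rose (28.6%), each by less than 2-fold, and a median of -0.10. OSMR, the oncostatin M receptor gene, and the cytokine IL11 fell (log2 fold changes -0.64 and -0.62). SOCS3 and CISH, feedback inhibitors of JAK signaling, fell (log2 fold changes -0.31 and -0.63), while STAT3 was lower (log2 fold change -0.10) and JAK2 higher (log2 fold change 0.34).

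Of 19 receptor tyrosine kinases and ligands tested, 9 were higher (47.4%, against 24.1% of all genes), and the median was 0.05. The share lower, 5 members (26.3%), was near the 25.2% of all genes. ERBB3, the HER3 receptor gene, was at 52.8, 52.8 and 55.8 CPM with EC359 and 107, 103 and 103 CPM in the combination (log2 fold change 0.96), just under 2-fold. Control held 76.5, 70.0 and 73.7 CPM and trametinib alone 136, 142 and 135 CPM. PDGFRB rose (log2 fold change 0.70) and the growth factor gene FGF2 (log2 fold change 0.60). Among the ligands of the EGF receptor, AREG was higher (2.17 to 4.31 CPM, log2 fold change 0.99), HBEGF was higher (log2 fold change 0.41) and TGFA was lower (4.30 to 1.98 CPM, log2 fold change -1.12). EGFR itself fell (log2 fold change -0.53) and MET (log2 fold change -0.34). Of the list, 7 genes, PDGFRA, KIT and ERBB4 among them, were under the filter.

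Apart from CCND1, genes of G1 control changed by less than 2-fold. Of 17 tested, 8 rose (47.1%) and 5 fell (29.4%), and the median was 0.07. CDKN2B, which encodes the CDK4 inhibitor p15, increased from 15.1, 14.8 and 16.6 to 27.0, 25.7 and 28.9 CPM (log2 fold change 0.81), and RB1, the retinoblastoma gene, from 15.2, 15.4 and 15.1 to 26.2, 26.6 and 25.1 CPM (log2 fold change 0.77). CDKN2D and CDKN1B, which encode the inhibitors p19 and p27, were higher (log2 fold changes 0.49 and 0.28), and CDKN1A was lower (log2 fold change -0.18). DNA replication and E2F genes showed no common direction, with 13 of 34 higher (38.2%), 10 lower (29.4%), each by less than 2-fold, and a median of -0.01. E2F1 and E2F2 rose (log2 fold changes 0.33 and 0.34), whereas MCM10 and GINS1, parts of the replication fork machinery, fell (log2 fold changes -0.39 and -0.29).

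Mitosis genes were lower as a group but by small amounts, with 18 of 25 lower (72.0%), 1 higher (4.0%) and a median of -0.20. CCNA2 (cyclin A) went from 168, 168 and 182 to 133, 128 and 129 CPM (log2 fold change -0.41), AURKA from 195 to 156 CPM (log2 fold change -0.32) and the phosphatase gene CDC25C from 23.8 to 18.6 CPM (log2 fold change -0.35). The exception in size was PLK3, a stress-responsive polo-like kinase, at 38.8, 38.5 and 37.8 CPM with EC359 and 7.98, 8.31 and 8.38 CPM in the combination (log2 fold change -2.22). CENPE was the member that rose (log2 fold change 0.16). With trametinib alone the list moved the other way, with 13 members higher and 3 lower against control and a median of 0.07, and the difference between the trametinib effects passed the test downward in 18 of 25 members (72.0%, against 15.9% of all genes) and upward in 2 (14.4% of all genes).

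Ribosome biogenesis genes also fell together, with 31 of 41 lower (75.6%) and 4 higher (9.76%), and a median of -0.24. The number that rose depended on single libraries, and was 2 without EC359 replicate 2 and 1 without EC359 replicate 3 or without combination replicate 2. With trametinib alone, 37 of 41 members (90.2%, against 15.2% of all genes) were lower than in control and 1 (2.44%, against 13.0%) higher, with a median of -0.23. The difference between the trametinib effects passed upward in 12 and downward in 12 (29.3% each, against 14.4% and 15.9% of all genes), with a median of 0.02. POLR1B, the second subunit of RNA polymerase I, was at 67.6, 64.8 and 69.0 CPM with EC359 and 37.0, 33.5 and 34.9 CPM in the combination (log2 fold change -0.93). WDR43 and URB2, factors of ribosomal RNA processing, fell (log2 fold changes -0.83 and -0.72). RRN3, an initiation factor of RNA polymerase I, had the largest value (log2 fold change -1.62) but few reads, 2.37, 5.57 and 4.22 CPM with EC359 and 1.20, 1.04 and 1.73 CPM in the combination, and the annotation places this symbol on 2 sequences. In the MYC and MondoA network 6 of 14 fell (42.9%) and 3 rose (21.4%), and 5 rose without combination replicate 2. MXD1, a MYC antagonist, was higher (log2 fold change 0.73), while MLX, MYCL and the glucose-responsive gene TXNIP were lower (log2 fold changes -0.66, -0.70 and -0.66).

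Stress programs controlled by ATF4, XBP1 and NRF2 showed no common direction when trametinib was added. In the integrated stress response list 12 of 28 rose (42.9%) and 7 fell (25%), and the median rounded to 0. ATF3 was its DEG. DDIT4, an inhibitor of mTOR complex signaling, fell from 52.8, 52.1 and 53.8 to 27.4, 29.1 and 25.5 CPM (log2 fold change -0.95), STC2 from 119.5 to 66.6 CPM (log2 fold change -0.85) and the glutathione-degrading enzyme gene CHAC1 from 10.2 to 5.65 CPM (log2 fold change -0.85). SESN2 rose (log2 fold change 0.60). In the unfolded protein response list 6 of 18 fell (33.3%) and 3 rose (16.7%). ERN1, which encodes the endoplasmic reticulum stress sensor IRE1, fell from 18.4, 17.3 and 16.7 to 7.50, 7.60 and 6.95 CPM (log2 fold change -1.25), and XBP1, EDEM1 and SYVN1 fell (log2 fold changes -0.26, -0.41 and -0.39).

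Heat shock protein genes were slightly higher, with 10 of 21 higher (47.6%), 4 lower (19.0%), each by less than 2-fold, and a median of 0.10. HSPB1 (HSP27) rose (log2 fold change 0.35), CRYAB (log2 fold change 0.34), the cochaperone gene CHORDC1 (log2 fold change 0.33) and DNAJA1 (log2 fold change 0.25). Trametinib without EC359 gave 3 members higher (14.3%, near the 13.0% of all genes) and 9 lower (42.9%, against 15.2%), with a median of -0.08. The difference between the effects passed upward in 13 of 21 (61.9%, against 14.4% of all genes). It passed downward in 0 by edgeR (1 at an unadjusted p under 0.05, and 1 by DESeq2), against 15.9% of all genes. Of 26 NRF2 antioxidant genes 10 rose (38.5%) and 6 fell (23.1%), with a median of 0.05. The cystine transporter SLC7A11 rose from 149, 161 and 163 to 201, 195 and 203 CPM (log2 fold change 0.34), and OSGIN1 and SRXN1 fell (log2 fold changes -0.38 and -0.36). In the ferroptosis and iron list 8 of 23 rose (34.8%) and 10 fell (43.5%). GPX4, the lipid peroxide reductase, was at 118 CPM with EC359 and 129 CPM in the combination (log2 fold change 0.13), SLC3A2, the partner chain of SLC7A11, rose (log2 fold change 0.39), and STEAP3, an iron reductase, fell (log2 fold change -0.40). PTGS2 had a value of -0.62 that did not pass.

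Metallothioneins, small cysteine-rich proteins that bind zinc and copper, were among the clearest increases. Of 10 genes of the list tested, 6 rose (60.0%), 4 of them at least 2-fold, and 2 fell (20.0%), and the median log2 fold change was 0.70, with a range of 0.55 to 0.99 when each library was left out in turn. MT1M, on chromosome 16 from 56632622 to 56633986, was at 3.89, 3.32 and 3.63 CPM with EC359 and 19.0, 18.6 and 20.6 CPM in the combination, 5.38-fold higher (log2 fold change 2.43, standard error 0.13, edgeR adjusted p = 2.5e-22). MT1X was at 43.3, 47.3 and 46.1 and 105, 111 and 114 CPM (log2 fold change 1.27), and MT1E at 136, 126 and 133 and 268, 264 and 263 CPM (log2 fold change 1.01). All combination libraries stood above all libraries of the other conditions for these 3 genes. Trametinib alone, in contrast, gave log2 fold changes of -0.29 (adjusted p = 0.13 by edgeR), -0.35 and -0.34 for them against control, and the latter pair passed as lower. MT2A, another member, had a log2 fold change of 0.09. The zinc exporter SLC30A1 rose from 31.1 to 60.3 CPM (log2 fold change 0.95), and the zinc importer SLC39A10 fell from 65.6 to 45.9 CPM (log2 fold change -0.52). Metallothionein genes are close copies, and the authors' counting divided reads among several placements, so the split between single members is uncertain.

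Replication-dependent histone genes, whose mRNAs normally end in a stem-loop without a poly(A) tail, rose in 10 of 21 tested (47.6%) and fell in 0 by edgeR (0 at an unadjusted p under 0.05, and 0 by DESeq2), with a median of 0.54. Without EC359 replicate 3 the number that rose was 6. HIST1H4C, on chromosome 6 from 26103948 to 26104337, was at 1.27, 1.81 and 4.26 CPM with EC359 and 12.8, 15.4 and 12.5 CPM in the combination (log2 fold change 2.47). Its EC359 libraries varied widely among themselves, though none reached the combination libraries. HIST1H3B and HIST1H4E rose (log2 fold changes 1.36 and 1.15), from means of 0.662 and 0.938 CPM. The libraries were made from poly(A) RNA, and the part of this selection in the histone values was not tested. With trametinib alone, 0 members of the list passed in either direction by edgeR, with 0 higher and 1 lower at an unadjusted p under 0.05, 1 lower by DESeq2, and a median of 0.05.

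Genes of the BCL2 family changed on both sides of the balance that controls mitochondrial apoptosis. Of 17 tested, 8 fell (47.1%, against 25.2% of all genes). The share that rose, 4 members (23.5%), was near the 24.1% of all genes. Among the survival members, BCL2L1 (BCL-XL) fell from 110.2, 109 and 109 to 56.4, 59.5 and 57.7 CPM (log2 fold change -0.92), MCL1 from 522 to 385 CPM (log2 fold change -0.44), BCL2 (log2 fold change -0.57), and BCL2A1, at a low level, from 1.93 to 0.494 CPM (log2 fold change -1.96). Among the BH3-only members that oppose them, BCL2L11 (BIM) rose from 8.45, 8.76 and 7.57 to 13.7, 13.0 and 15.9 CPM (log2 fold change 0.78), HRK from 2.28, 2.32 and 2.17 to 4.23, 5.37 and 5.15 CPM (log2 fold change 1.12) and BBC3 (PUMA) from 39.9 to 49.0 CPM (log2 fold change 0.30), while PMAIP1 (NOXA) and BID fell (log2 fold changes -0.45 and -0.26). With BCL2L2 (log2 fold change -0.16), 5 survival members fell, and BCL2L10 did not pass. Death receptors and caspases were mostly lower, with 8 of 15 lower (53.3%) and 3 higher (20.0%), and a median of -0.29. The number that rose was 1 when EC359 replicate 1, 2 or 3 or combination replicate 3 was left out. TNFRSF1A, the main TNF receptor, fell from 198, 193 and 190.5 to 95.2, 101 and 101 CPM (log2 fold change -0.97). The TRAIL receptor genes TNFRSF10A and TNFRSF10B fell (log2 fold changes -0.87 and -0.71), and the adaptor gene FADD (log2 fold change -0.57).

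Lipid and energy genes were partly lower. Of 26 cholesterol and fatty acid genes 13 fell (50.0%) and 2 rose (7.69%). The squalene epoxidase gene SQLE and the desaturase gene SCD fell (log2 fold changes -0.65 and -0.53). In the glycolysis and hypoxia-responsive list 11 of 21 fell (52.4%) and 2 rose (9.52%), with 1 rise without combination replicate 2. NDRG1 fell from 353, 339 and 343 to 168, 170.1 and 171 CPM (log2 fold change -1.02) and hexokinase gene HK2 (log2 fold change -0.62), while the vasodilator peptide gene ADM rose from 305 to 478 CPM (log2 fold change 0.65). FOXO-responsive genes were higher, with 11 of 18 higher (61.1%), 1 lower (5.56%), each by less than 2-fold, and a median of 0.29. Their leading members, besides BCL2L11, were the ubiquitin ligase gene FBXO32 (log2 fold change 0.54), SESN3 (log2 fold change 0.52) and GADD45A (log2 fold change 0.51).

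TGF-beta and BMP genes had shares near those of all genes, with 6 of 21 higher (28.6%, against 24.1%) and 7 lower (33.3%, against 25.2%). TGFB2, which encodes a TGF-beta ligand, was at 8.37, 8.19 and 8.24 CPM with EC359 and 25.8, 25.2 and 23.9 CPM in the combination (log2 fold change 1.60), and at 28.3, 27.6 and 28.8 CPM with trametinib alone. INHBA, the activin A subunit gene, fell from 28.3, 29.6 and 27.6 to 10.1, 9.91 and 10.6 CPM (log2 fold change -1.48). The ID genes, which encode inhibitors of helix-loop-helix factors, split, with ID1 lower (56.7 to 20.6 CPM, log2 fold change -1.46) and ID4, ID2 and ID3 higher (log2 fold changes 1.14, 1.26 and 0.62). Of 15 actin and SRF genes 10 rose (66.7%) and 3 fell (20.0%), with a median of 0.15. CNN1, a smooth muscle calponin, rose from 13.0, 13.3 and 12.3 to 30.5, 29.3 and 31.5 CPM (log2 fold change 1.24), TAGLN (transgelin) from 122 to 194 CPM (log2 fold change 0.68) and ANKRD1 (log2 fold change 0.56). ACTA2 was lower (log2 fold change -0.74) at about 1 CPM, and did not pass without EC359 replicate 1 or combination replicate 2.

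The largest increase among genes of at least 10 CPM belonged to ACTC1, the cardiac alpha-actin gene on chromosome 15 from 34788096 to 34795726. It was at 7.31, 7.02 and 5.44 CPM with EC359, 40.8, 39.2 and 41.5 CPM in the combination, 8.93, 8.88 and 8.74 CPM in control and 27.7, 30.5 and 27.7 CPM with trametinib alone. The combination libraries were the highest of the 4 conditions, and ACTC1 was 6.14-fold above EC359 (log2 fold change 2.62, standard error 0.073, edgeR adjusted p = 2.2e-36). ZSCAN31, a zinc finger gene, rose from 3.38, 3.39 and 3.66 to 14.8, 15.9 and 15.5 CPM (log2 fold change 2.15). KCNQ1OT1, the long antisense RNA of the imprinted KCNQ1 locus, rose from 8.49, 8.19 and 8.31 to 34.8, 34.1 and 34.1 CPM (log2 fold change 2.04), and its libraries in the other conditions held 4.11 to 5.99 CPM (control) and 7.18 to 7.63 CPM (trametinib). Other rises were the keratin gene KRT17 (10.5 to 30.7 CPM, log2 fold change 1.55), the actin-binding nexilin gene NEXN (19.6 to 55.8 CPM, log2 fold change 1.51), the integrin gene ITGB8 (log2 fold change 1.41) and IGFN1 (92.6 to 240.2 CPM, log2 fold change 1.38). WFDC21P and RSRP1 completed the 12, with log2 fold changes of 1.51 and 1.42. The rise at the highest level, named after its values were seen, was TRIM58, at 325, 328 and 339 CPM with EC359 and 860.0, 846 and 847 CPM in the combination (log2 fold change 1.36).

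**Figure D2:**
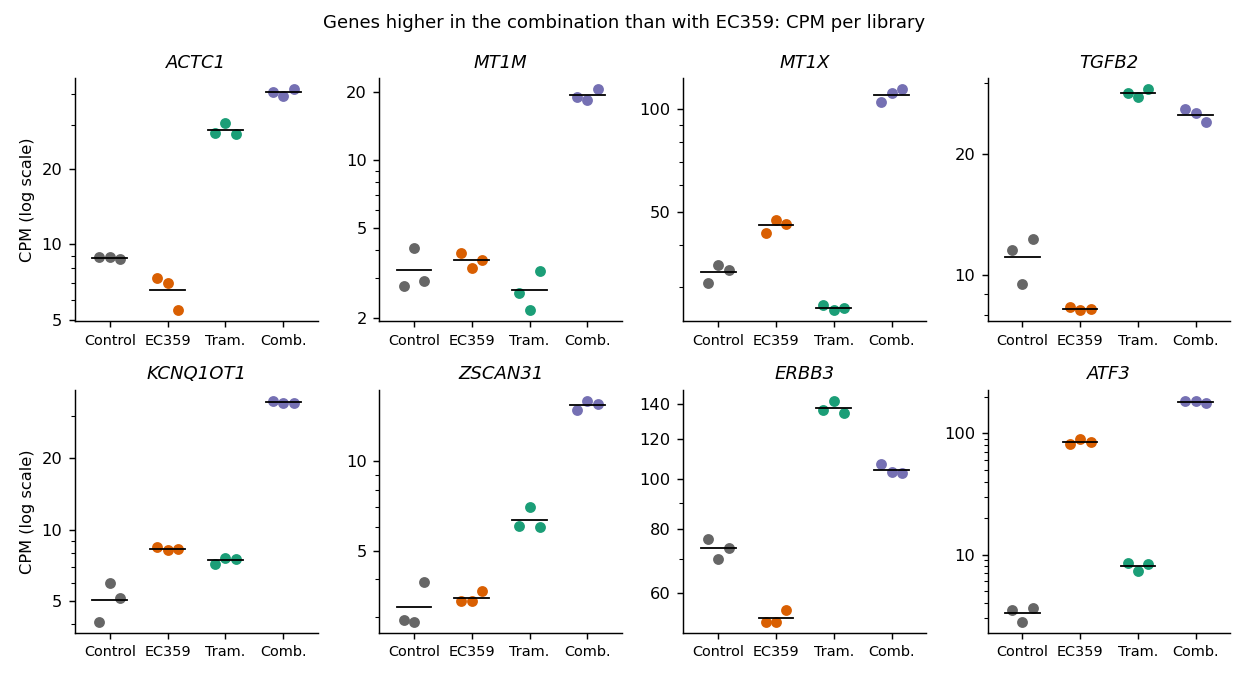
CPM per library on a logarithmic axis for 8 genes higher in the combination than with EC359, in control, EC359, trametinib (Tram.) and combination (Comb.) libraries, with 3 points a group and a line at the group mean. MT1M, MT1X and KCNQ1OT1 are high in the combination libraries and not with trametinib alone, whereas TGFB2 and ERBB3 reach higher values with trametinib alone.

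**Figure D3:**
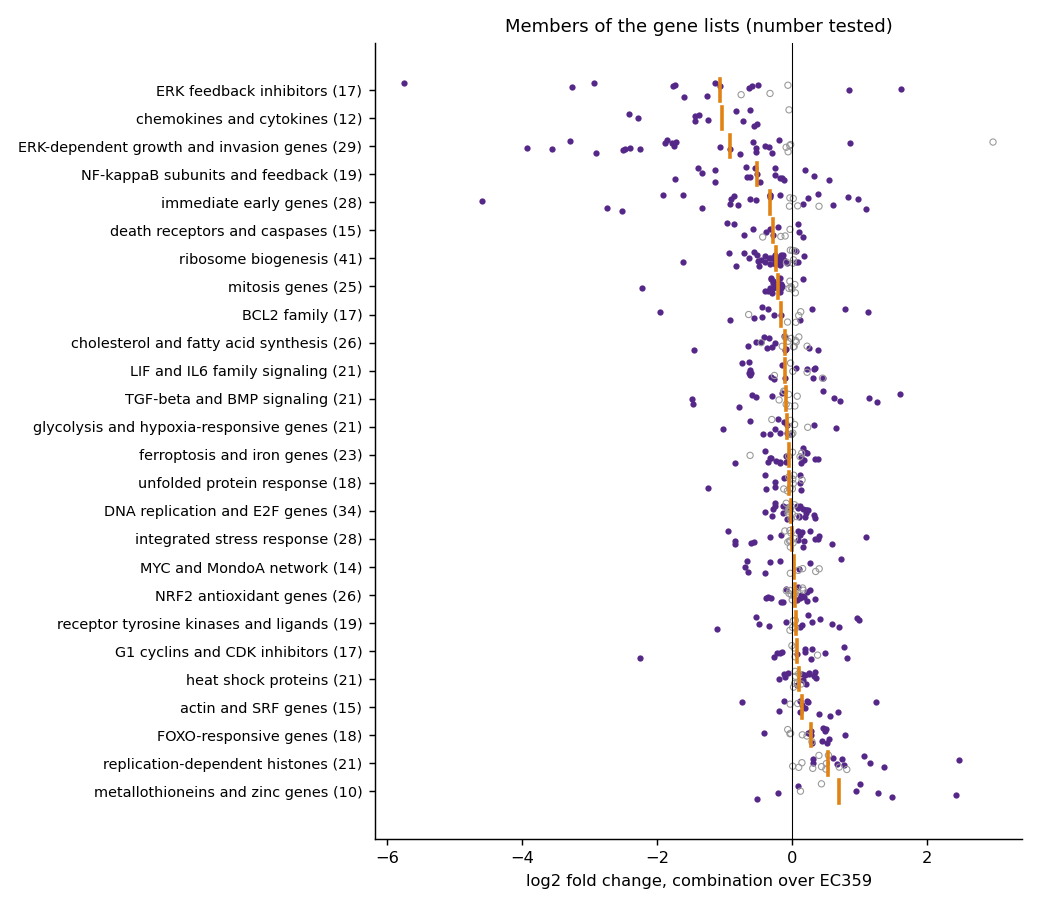
Log2 fold change of the combination over EC359 (horizontal axis) for the tested members of 26 gene lists, with the number tested in brackets. Filled points passed an adjusted p-value of 0.05 and open points did not, the orange bar is the list's median and the thin vertical line the median of all genes, with vertical scatter only to separate points. The ERK feedback list has the lowest median, -1.07, and the metallothionein and zinc list the highest, 0.70.

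The same drug without EC359 had a smaller effect by count. Trametinib compared to control gave 71 higher DEGs (0.478% of genes tested) and 142 lower DEGs (0.955%), and 1937 genes (13.0%) were higher and 2260 (15.2%) lower without a minimum fold change. The group means behind these values come from 6 libraries that the comparison of the combination with EC359 does not use. The filter, the normalization and the estimate of the spread were shared by all 12 libraries. Of the 231 genes that fell when trametinib was added to EC359, 92 (39.8%, and 64.8% of the 142) were also lower DEGs with trametinib alone, and 147 (63.6%) fell at an adjusted p-value under 0.05. Of the 251 that rose, 27 (10.8%, and 38.0% of the 71) were also higher DEGs with trametinib alone and 60 (23.9%) rose at an adjusted p-value under 0.05. Conversely, 115 of the 142 genes lowered by trametinib alone (81.0%) were also lower when it was added to EC359. Over all 142, the median log2 fold changes were -1.46 without EC359 and -1.35 with it. Of the 71 raised by trametinib alone, 38 (53.5%) were also higher, and the medians over all 71 were 1.35 and 0.89. Both sets were selected on their values without EC359, which favours larger medians there. Across all 14865 genes, which are not independent replicates, the log2 fold changes of the 2 comparisons correlated with r = 0.43, and with r = 0.67 over the 9405 genes of at least 10 CPM on average.

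**Figure D4:**
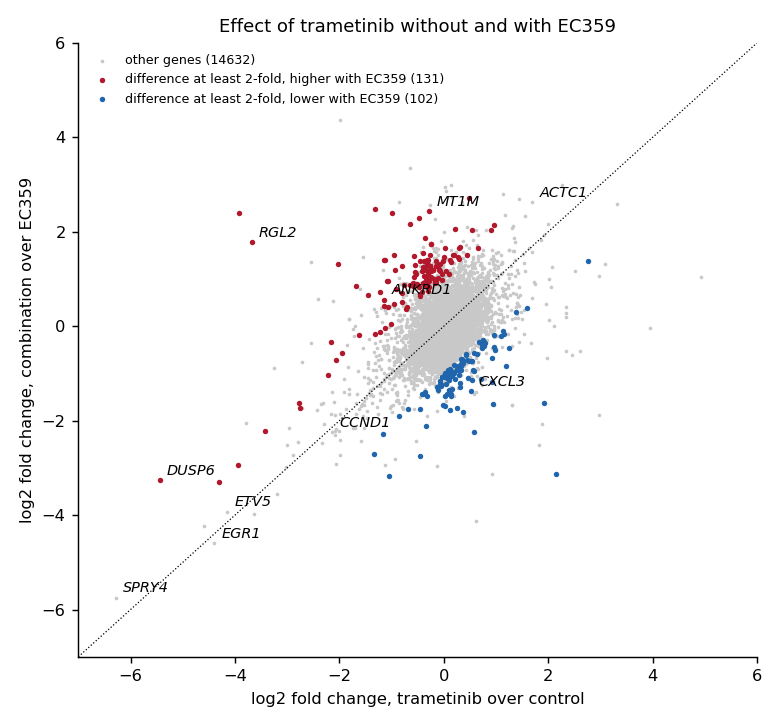
Log2 fold change of trametinib over control (horizontal axis) against that of the combination over EC359 (vertical axis), with a point for each of 14865 genes and a dotted line where both are equal. Red and blue points are the 131 and 102 genes whose difference between the effects was at least 2-fold and passed an adjusted p-value of 0.05. SPRY4, EGR1, ETV5 and CCND1 lie near the line, MT1M and ANKRD1 above it and CXCL3 below it.

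The difference between the trametinib effect with EC359 and without it was tested for each gene. It was above 0 in 2145 genes (14.4%) and below 0 in 2361 (15.9%), and at least 2-fold in 131 (0.881%) and 102 (0.686%) of them. For SPRY4, EGR1, ETV5 and NAV3, all lowered strongly by trametinib in both settings, no difference was detected. It was 0.54 for SPRY4 (adjusted p = 0.185), -0.20 for EGR1 (adjusted p = 0.709), 0.22 for ETV5 (adjusted p = 0.0856) and 0.03 for NAV3 (adjusted p = 0.895), none of which passed the edgeR test. Their standard errors were 0.26, 0.34, 0.098 and 0.14, which sets how small a difference could be detected. For DUSP6, DUSP4 and PLK3 the decrease was smaller with EC359, with differences of 2.17, 1.002 and 1.20, and for FOSL1 it was larger (difference -0.83).

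The largest differences upward included MT1M (difference 2.71), MT1X (difference 1.62) and ANKRD1, which encodes a cardiac ankyrin repeat protein. ANKRD1 fell from 276, 269 and 263 CPM in control to 125, 118 and 122 CPM with trametinib alone, and rose from 495, 498 and 491 CPM with EC359 to 723, 736 and 727 CPM in the combination. The effects therefore had opposite signs, and their difference was 1.70 (standard error 0.035, edgeR adjusted p = 4.2e-42). HIST1H4C had a difference of 3.79. RGL2 had the largest, 5.46, but its libraries disagreed within groups, at 1.31, 10.5 and 0.788 CPM with EC359, 2.08, 20.6 and 22.6 CPM in the combination and 9.39, 9.67 and 24.1 CPM in control, and the annotation places the symbol on 5 sequences. Its difference did not pass in 8 of the 12 fits that left out 1 library.

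Among the differences downward, that of BHLHE40 had levels well above 10 CPM in every library. BHLHE40, a circadian repressor of transcription, was at 100.1, 103 and 99.6 CPM in control, 103, 104 and 100.4 CPM with trametinib, 411, 396 and 388 CPM with EC359 and 142, 141 and 144 CPM in the combination. Its log2 fold change on trametinib was 0.02 without EC359 (edgeR adjusted p = 0.634) and -1.48 with EC359. CXCL3 had a difference of -1.89 and TRAF1 of -1.49. RRAD, a Ras-related GTPase gene, rose with trametinib alone (log2 fold change 0.96) and fell when it was added to EC359 (log2 fold change -0.44). SLFN11, whose product sensitizes cells to DNA damage, was at 17.6, 20.4 and 19.2 CPM with EC359 and 9.42, 9.17 and 8.83 CPM in the combination, and its mean was 17.9 CPM in control and 19.4 CPM with trametinib. CHAC1 had a difference of -1.18.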

How the data were processed

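Poly(A) RNA of OVCAR8 cells was sequenced in 12 libraries, 3 for each of control, EC359, trametinib and combination. Per the file headers, the authors counted reads on the 26485 genes of an hg38 annotation with featureCounts 1.5.0-p1, dividing reads placed at several positions, so the deposited values are estimated counts, of which 12.4% to 15.1% of genes per library were not whole. The submitters' processing notes name bcl2fastq, HISAT2, featureCounts and hg38, with roles and other versions not given in the sources used here. Reads of near-identical genes are therefore split by an assumption, and their values are uncertain. Deposited counts were rounded to whole numbers, 6337 genes had no count, and 14865 passed a filter on low counts (minimum count 10, minimum total 15, edgeR's filterByExpr over the 4 conditions). Library totals were 24790392 to 32467283, and 3 counts, the limit that a count of 0 allows for counting error only, were 0.0924 to 0.121 CPM.

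All 12 libraries were fitted together with edgeR 4.0.16 (R 4.3.3) by the robust quasi-likelihood method with TMM factors (0.947 to 1.06), 8 residual degrees of freedom and a biological coefficient of variation of 3.95%. Contrasts were combination against EC359, trametinib against control, and the difference of these contrasts. P-values are two-sided and were adjusted by Benjamini-Hochberg over all genes tested. DEGs had to change by at least 2-fold with an adjusted p-value below 0.05, except that the difference was counted without a minimum fold. Errors are standard errors of log2 fold changes. On counts simulated for the 14865 genes, with 200 changed, 197 were recovered for combination against EC359 with 1 false call, and 196 for the difference. The changed genes were drawn only from the more abundant genes, all with a single size of change above 2-fold. The recovery therefore does not describe genes of low level or changes near the threshold.

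Samples were grouped by their treatment labels. The members and gene lists were chosen with earlier results of these data known. Named genes were the 12 largest rises and 12 largest falls among DEGs that reached 10 CPM in the higher group and whose libraries did not overlap, the 4 members of each list with the largest absolute change and at least 1 CPM, the 6 largest differences of each sign between the trametinib effects among those of at least 2-fold and 10 CPM, and LIF, LIFR and IL6ST. Other genes given with values were chosen after their values were seen. A gene that the naming rule selects is not reported here. No set test was run, and lists are described by counts and medians beside all genes. Alternatives were DESeq2 1.42.0, DESeq2 size factors, total counts, other filters, a fit restricted to the compared groups, a block for the replicate number, leaving out each library, and other fold thresholds. Figures were drawn with matplotlib 3.10.9 and tables read with pandas 2.3.3 in Python 3.11.15. Same-numbered libraries did not deviate together across 10756 genes (correlations -0.0096, 0.057 and -0.11 between EC359 and combination), so replicate numbers were not taken as pairs.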

Additional observations from a re-analysis of the deposited data

Results flagged for a closer look

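The effect of trametinib differed between cells with and without EC359 in 2145 genes upward and 2361 downward (edgeR quasi-likelihood test of the difference, adjusted p under 0.05). Genes selected by the naming rule whose difference passed and was at least 2-fold are given here as log2 differences.

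Differences upward, where trametinib gave a higher log2 fold change in the presence of EC359, were found in metallothionein genes, at 2.71 for MT1M, 2.04 for MT1F, 1.62 for MT1X and 1.35 for MT1E. MT1F rests on 86 to 124 counts per combination library and 24 to 50 per EC359 library. Histone genes followed, at 3.79 for HIST1H4C, 1.70 for HIST1H4E and 1.68 for HIST1H3B, all from low levels. With EC359 the mean was 2.45 CPM for HIST1H4C and under 1 CPM for HIST1H4E and HIST1H3B. The ERK feedback and target genes DUSP6 (2.17), PLK3 (1.20), ETV1 (1.01) and DUSP4 (1.002) fell less steeply with EC359, and DUSP6, DUSP4 and ETV1 were under 1 CPM with trametinib alone. KCNQ1OT1 (1.501), ZSCAN31 (1.19), RSRP1 (1.12) and NEXN (1.07) rose further with EC359. ANKRD1 (1.70) changed sign. AREG differed by 1.18 at levels under 5 CPM. RGL2 differed by 5.46, with libraries of the same condition far apart. Genes of the lists given in the report without being selected by that rule also met both conditions, at 1.63 for EPHA4, 1.30 for KLF4, 1.14 for FOS, 1.14 for NR4A3, 1.12 for HBEGF and 1.02 for SPRED3. FOS was also under 1 CPM with trametinib alone, at 0.343, 0.114 and 0.357 CPM.

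Differences downward were found in the chemokine genes CXCL3 (-1.89) and CXCL1 (-1.12), in TRAF1 (-1.49) and in the EGR genes EGR4 (-2.29) and EGR2 (-1.05). The EGR4 value rests on few reads, with 6, 6 and 14 counts in control and 8, 3 and 7 with trametinib alone. Its combination libraries held 7, 4 and 15 counts and its EC359 libraries 67, 66 and 43. BHLHE40 (-1.51), RRAD (-1.40), SLFN11 (-1.18), CHAC1 (-1.18) and DDIT4 (-1.09) also differed downward. RRN3 differed by -3.54 on 28 to 46 counts per combination library and 25 to 40 per control library.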

How the results depend on the processing

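Across DESeq2, other normalizations, no filter on low counts, a fit of only the groups compared and each left-out library, combination against EC359 gave 225 to 324 genes higher and 215 to 269 lower, trametinib against control 56 to 93 and 133 to 161, and the difference 1735 to 2065 and 2064 to 2842, with 1735 and 2842 from total counts only. Requiring at least 10 counts in every library gave 108 genes higher and 155 lower for combination against EC359. For trametinib against control it gave 33 higher and 101 lower. This setting tests fewer low genes. Without a minimum fold, the counts were 3578 and 3741 for combination against EC359 and 1937 and 2260 for trametinib against control. For the difference, a minimum of 2-fold gave 131 and 102, and a test against 1.5-fold (glmTreat) 53 and 46. With the replicate number as a block, combination against EC359 gave 255 and 232, trametinib against control 68 and 141, and the difference 2114 and 2317, and since same-numbered libraries did not deviate together, the number is not a pairing.

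Of the values for single genes, 1784 kept their direction and side of the threshold, 10 no longer passed, 4 newly passed and 4 changed sign. PHLDA2 was -0.45 on the log2 scale without combination replicate 1, and LIFR ranged from -0.021 to 0.048 when each library was left out, being -0.021 without EC359 replicate 1, -0.011 without combination replicate 1 and -0.01 without combination replicate 3. RGL2 passed for combination against EC359 without EC359 replicate 2 (3.85). PHLDA2 passed with DESeq2 (2.98) and without combination replicate 3 (3.54). The cause was not tested. Of the medians of lists, 41 of the alternatives moved by more than the spread and 297 did not. Genes under 1 CPM, which include 87 of the 251 rises, rest on few counts and are the least precise values here.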

Other observations

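The groups below were named after their values were seen, from symbols only. Among all genes tested, 24.1% were higher and 25.2% lower in the combination than with EC359. With trametinib alone, 13.0% were higher and 15.2% lower than in control. Of 162 small nucleolar and Cajal body RNA genes tested, 65 (40.1%) were higher in the combination than with EC359 and 1 was lower, with 26 of the rises at least 2-fold and a median of 0.47 on the log2 scale. Trametinib on its own gave 0 higher and 3 lower by edgeR (2 higher at an unadjusted p under 0.05, and 0 by DESeq2), and a median of -0.05. The host genes that carry such RNAs in their introns were higher in 14 of 21 (66.7%), with a median of 0.25. Of the 21, 6 were lower with trametinib alone. Genes of microRNA hairpins were higher in 59 of 184 (32.1%) and lower in 14 (7.61%). Many small RNA genes lie within introns of host genes, and their reads in poly(A) libraries cannot be told apart from reads of the host transcript.

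Cytosolic ribosomal protein genes were higher in 53 of 78 (67.9%) and lower in 1 (1.28%), by a median of 0.09 on the log2 scale. With trametinib alone, in contrast, 0 were higher by edgeR (0 at an unadjusted p under 0.05, and 0 by DESeq2) and 32 lower. Their share of all counts was 5.36% to 5.43% with EC359 and 5.59% to 5.79% in the combination. Mitochondrial ribosomal protein genes were higher in 13 of 80 (16.2%) and lower in 31 (38.8%), with a median of only -0.009. With trametinib alone 0 of them were higher and 21 lower by edgeR, with a median of -0.07. Of 500 zinc finger genes with ZNF symbols, 76 (15.2%) were higher and 139 (27.8%) lower, with a median of -0.09, and the share lower was near that of all genes. In the TBC1D3 family, near-identical copies whose reads were divided, 7 of 8 were higher with a median of 1.04. NKX2-1, which encodes a thyroid and lung transcription factor, was at 41.2, 42.3 and 38.7 CPM with EC359 and 78.7, 80.9 and 88.0 CPM in the combination, and NT5E and LAMB3 fell, with log2 fold changes of -1.87 and -1.67.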
